A study of Mus musculus with 10 samples.

Results

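The amputated digit tip of mice that lack limb enhancers of Lmx1b was compared between 12 and 14 days post amputation (dpa). The libraries were taken by their titles, 3 mutant libraries from each day, which makes 6 of the 10 libraries of the series. The mutant genotype is ΔLARM1/2, a deletion of the enhancers LARM1 and LARM2 that drive Lmx1b in the limb, and the same deletion was carried by all 6 libraries. The 4 other libraries were wild type, 2 from each day. All animals had a mixed CD1 and C57Bl/6 background and were 33 days old at 12 dpa and 35 days old at 14 dpa. Each library pooled the dissected blastema of 6 amputated central hindlimb digits, so a library averages over digits. The series design calls the libraries of a group biological replicates. Total RNA was sequenced, and the values are read counts per gene.

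A mouse digit tip cut through the last phalanx normally grows back. A wound epidermis closes over the stump, osteoclasts erode the exposed bone, and a blastema, a mass of dividing cells largely of fibroblast and bone origin, forms beneath the epidermis and builds new bone, dermis and nail. The nail matrix, which makes the hard keratins of the nail plate, is needed for this regrowth. Lmx1b is a homeobox gene of the dorsal limb mesenchyme, and mice and humans with too little of it have defective nails. The study's title states that regeneration fails without Lmx1b; the day comparison within mutants asks what such a tip does over 2 days.

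Total expected counts ran from 75924098 to 101632364 in the 6 mutant libraries, with 23773 to 25305 genes detected. Lmx1b itself (ENSMUSG00000038765) stood at 0.0788, 0.336 and 0.168 CPM (counts scaled to a library of 1e+06) at 12 dpa and at 0.234, 0.0696 and 0.0278 CPM at 14 dpa, and the wild type libraries had 1.69 to 2.94 CPM. Mutant 14 dpa replicate 1, the library at 0.234 CPM, carries a wild type genotype tag, while its title and description name it a mutant and the design counts 3 mutants per day. Its Lmx1b level lay inside the range of the 12 dpa mutants. On the first principal component of all 10 libraries it stood at -65.6, the other mutant libraries at -53.7 to -33.0 and wild type at 64.4 to 79.1. Results that rest on this library are given with and without it. The first principal component of the mutant libraries held 30.7% of the variance and separated the days, and the second, with 21.4%, set mutant 12 dpa replicate 3 apart. Each group contained 1 female library by its Y-linked counts. The labelled blastema contained epidermis as well: the basal keratin Krt5 stood at 5305 to 6868 CPM in the mutants, beside 604 to 2845 CPM of the type I collagen gene Col1a2.

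Few genes passed the test across the 2 days. At an adjusted p under 0.05 in edgeR's quasi-likelihood test, 7 of the 20216 genes tested passed in mutants, 0.0346%. Of these, 3 rose (0.0148%) and 4 fell (0.0198%). The genes that fell were Slpi, S100a8, Csn1s1 and the predicted gene Gm45062. Those that rose were Siah1a, Col10a1 and the unnamed gene ENSMUSG00000119873. Before adjustment, a far looser cut, 3803 genes, 18.8%, had an edgeR p under 0.05, 9.07% higher and 9.74% lower. DESeq2, run as an alternative, called 1505 of the 14295 genes to which it gave an adjusted p, 10.5%, with 714 higher (4.99%) and 791 lower (5.53%). Without the tagged library DESeq2 called 907 genes, and without mutant 12 dpa replicate 3 it called 492. In 2517 genes, 12.5%, all 3 libraries of 14 dpa lay above all 3 of 12 dpa, and in 2382, 11.8%, all lay below. These 2 percentages are the background for the counts of members given with each gene group, and "did not overlap" means such a separation of the 3 libraries of each day.

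S100a8, a calcium-binding alarmin of neutrophils and injured keratinocytes, stood at 247, 135 and 220 CPM at 12 dpa and at 20.3, 29.4 and 32.2 CPM at 14 dpa. Every 14 dpa library was far below every 12 dpa library. It fell by 2.88 on the log2 scale (SE 0.33, edgeR adjusted p = 0.0426). Slpi, a secreted inhibitor of leukocyte proteases made by epithelia, went from 23.7, 27.4 and 30.1 CPM to 5.89, 6.02 and 4.43 CPM, with no overlap. It fell by 2.31 (SE 0.26, edgeR adjusted p = 0.0426). In wild type the same genes were lower from the start, S100a8 at 7.83 to 10.1 CPM at 12 dpa and Slpi at 1.51 and 2.34 CPM. They were lower again in wild type at 14 dpa, S100a8 at 3.09 and 6.28 CPM and Slpi at 0.467 and 0.980 CPM. The wild type log2 changes were -0.93 (SE 0.39) and -1.39 (SE 0.34), and DESeq2 called that of Slpi (adjusted p = 0.0274). The difference between the genotypes passed in DESeq2 for S100a8 (adjusted p = 0.0288) and not for Slpi (0.442), and in edgeR for neither.

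Csn1s1, a casein gene, had 7.81, 2.73 and 4.53 CPM at 12 dpa and 0.169, 0.348 and 0.0833 CPM at 14 dpa. It fell by 4.60 on the log2 scale (SE 0.58, edgeR adjusted p = 0.0479), and the wild type libraries held at most 0.259 CPM. Gm45062, which is outside the protein-coding table and is named because it was called, went from 7.32, 6.63 and 8.02 CPM to 1.09, 1.253 and 0.625 CPM, a fall of 2.88 (SE 0.34, edgeR adjusted p = 0.0426). Its wild type libraries had 1.44 and 2.33 CPM at 12 dpa and 3.63 and 7.04 CPM at 14 dpa.

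Siah1a, a ubiquitin ligase, rose by 0.83 on the log2 scale (SE 0.10, edgeR adjusted p = 0.0426). Its levels of 41.6, 46.8 and 39.2 CPM at 12 dpa became 80.5, 74.6 and 72.3 CPM at 14 dpa, a narrow spread on both days. Wild type Siah1a was higher at 14 dpa as well, with 24.3 and 27.9 CPM and then 38.8 and 36.4 CPM. That log2 change was 0.53 (SE 0.13, edgeR adjusted p = 0.533), and the difference between the genotypes was 0.31 (SE 0.16). Siah1a has close relatives in the genome, and reads that fit several of them were divided by the authors' counting. Col10a1, the collagen of hypertrophic cartilage, had 5 counts over the 3 libraries of 12 dpa and 436 over those of 14 dpa. Its levels were 0.045, 0.0129 and 0 CPM and then 1.99, 1.03 and 2.48 CPM, a ratio of 89.4 (95% exact counting interval 38 to 277, which covers counting error only; edgeR adjusted p = 0.0426). Even so it stayed below the 22.2 to 91.8 CPM of the wild type. Col10a1 was higher at 14 dpa in wild type too, with 31.9 and 22.2 CPM and then 91.8 and 44.9 CPM. The wild type log2 change was 1.34 (SE 0.47, edgeR adjusted p = 0.578). The mutant mean of Col10a1 lies below the 2 CPM set for named genes, and the gene is given because it was called in mutants.

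ENSMUSG00000119873 had 1 count over the 12 dpa mutants and 3069 over the 14 dpa mutants, with 7.71, 19.03 and 7.82 CPM at 14 dpa (ratio 3150, counting interval 564 to 124000; edgeR adjusted p = 0.0153). The wild type libraries showed the same order, 6 counts at 12 dpa and 2950 at 14 dpa, and the cause was not tested. This gene is outside the protein-coding table and has a length of 191 bases. It was the only one of the 7 called genes that passed in all but 1 of the 26 other settings tried, limma-voom being the exception; the other 6 calls were each lost in 7 to 16 of them. For S100a8, Slpi, Csn1s1, Siah1a and Gm45062, dropping any 1 of the 3 mutant 14 dpa libraries ended the call. For Col10a1, dropping replicate 1 or 3 of 14 dpa did. Dropping either wild type library of 12 dpa ended all 6 calls and left 1 called gene. Omitting mutant 12 dpa replicate 1, 2 or 3 gave 23, 24 and 16 called genes. Omitting mutant 14 dpa replicate 1, the tagged library, gave 7 (2 higher and 5 lower), and omitting replicate 2 or 3 gave 3 and 1. Since the other 6 calls were lost without the tagged library, its 7 called genes were not the same 7. Siah1a, Csn1s1 and Col10a1 also lost the call in the fit of the 6 mutant libraries alone.

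**Figure D1:**
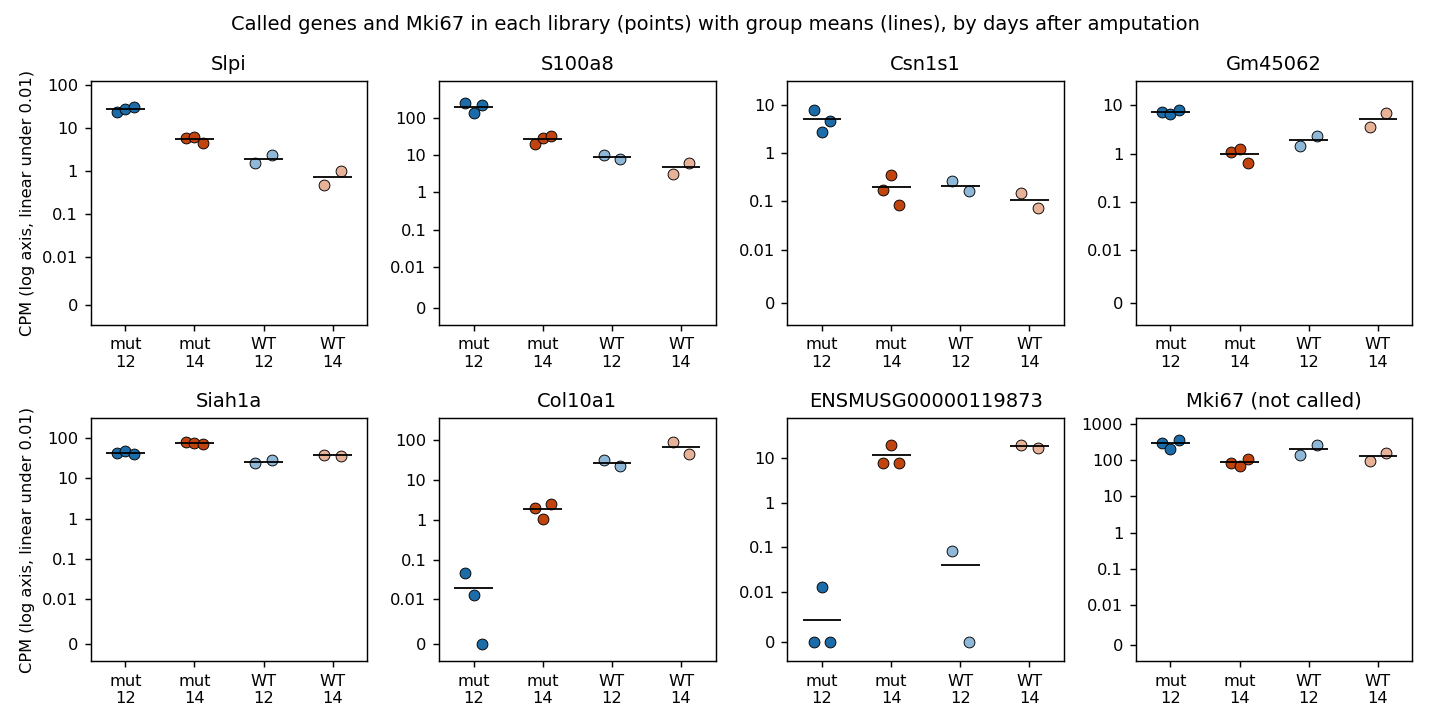
Level of the 7 called genes and of Mki67 in each library, in CPM on a log axis that is linear below 0.01. Points are libraries and lines are group means, mut is mutant and WT wild type, and the numbers below are days post amputation. S100a8 lies at 135 to 247 CPM in mutants at 12 dpa and at 20.3 to 32.2 CPM at 14 dpa.

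Among protein-coding genes of at least 2 CPM whose days did not overlap, those with the smallest p that missed the threshold were named to fill up the list to 12 in each direction. None of these passed edgeR's test, and their adjusted p ran from 0.0524 to 0.0783. The higher ones included Plekhf2, Rpl34, Gnptg, March7, Yrdc, Sprtn, Akirin1, Peli1, Atp6ap2 and Ubl3. Ubl3, a ubiquitin-like protein, went from 119, 168 and 124 CPM to 286, 258 and 242 CPM (log2 change 0.94, SE 0.16). Peli1, a ubiquitin ligase of Toll-like and interleukin-1 receptor signalling, had 53.0 to 61.4 CPM and then 79.7 to 98.1 CPM. Gnptg, Atp6ap2 and Plekhf2 belong to lysosomal and endosomal traffic, Yrdc modifies transfer RNA, and Sprtn repairs DNA-protein crosslinks; their log2 changes were between 0.51 and 0.70.

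The lower ones were Samd12, Bod1l, Cep250, Slx4, Itsn1, Tnrc6a, Polq, Fbf1 and mt-Nd4l. Polq, a DNA polymerase of end joining, went from 4.14, 2.44 and 3.59 CPM to 0.846, 1.07 and 0.750 CPM (log2 change -1.93, SE 0.28). Slx4, a scaffold for DNA repair nucleases, went from 9.85, 8.32 and 10.8 CPM to 4.43, 4.65 and 4.39 CPM (-1.10, SE 0.15). Both genes act in repair of DNA. Bod1l protects replication forks, and its 3 libraries of 14 dpa stood at 29.8 to 30.2 CPM below 42.9 to 49.3 CPM at 12 dpa. Cep250 and Fbf1 are centrosome and cilium proteins, at -1.17 (SE 0.16) and -0.75 (SE 0.11). Samd12 had the largest difference among them, 6.11, 2.17 and 5.17 CPM against 0.273, 0.457 and 0.583 CPM (-3.35, SE 0.44).

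Genes of the cell cycle and DNA replication were lower at 14 dpa than at 12 dpa. Mki67, the standard marker of dividing cells, stood at 297.5, 206 and 375 CPM at 12 dpa and at 83.2, 69.3 and 111 CPM at 14 dpa. The days did not overlap, the log2 change was -1.74 (SE 0.33), and edgeR's adjusted p of 0.0883 missed the threshold. Of the 51 genes of the list, all of them tested, 47 had a log2 change below 0 and 4 above. The median was -0.97, beside -0.02 over all genes tested. The days did not overlap in 22 of the 51 with the 14 dpa libraries below (11.8% of all genes did) and in 1 with them above (12.5%). EdgeR called 0 of them; 43 had an unadjusted p under 0.05, all 43 lower, and DESeq2 called 34, all lower.

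Summed over the list, the 12 dpa libraries held 2146, 1545 and 2375 CPM and the 14 dpa libraries 1226, 1152 and 1539 CPM. Mutant 12 dpa replicate 2 and mutant 14 dpa replicate 3 thus met near the same level. Top2a, the topoisomerase that untangles replicated chromosomes, had 160, 84.0 and 168 CPM and then 51.6, 49.6 and 93.6 CPM, an overlap of those 2 libraries. Mybl2, a transcription factor of the dividing cell, went from 15.8, 10.6 and 18.4 CPM to 5.31, 6.73 and 7.72 CPM (-1.18, SE 0.21, edgeR adjusted p = 0.0783). Foxm1, which drives genes of mitosis, went from 29.7, 19.9 and 38.6 CPM to 10.6, 9.69 and 15.2 CPM (-1.32, SE 0.28), and Cenpe, a kinesin of the kinetochore, from 14.4 to 30.4 CPM to 5.71 to 10.9 CPM (-1.65, SE 0.33).

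Without the tagged library the list's median was -0.79 and DESeq2 called 12 of its genes lower and 1 higher, and without mutant 12 dpa replicate 3 the median was -0.83 and DESeq2 called 7. In wild type the median was -0.04, and the summed level was 1511 and 1844 CPM at 12 dpa and 1286 and 1742 CPM at 14 dpa. The test of the difference between the genotypes passed for none of these genes in edgeR, so the lower cell cycle level is not shown to be particular to mutants. Replication-dependent histones, whose mRNA is made in S phase, showed no such order: of 61 tested, 1 did not overlap, and the summed level of 2385 to 4170 CPM at 12 dpa met 2354 to 4657 CPM at 14 dpa. In bulk tissue, fewer dividing cells and less of these mRNAs in each cell cannot be told apart.

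Promoters of 39 of the 51 cell cycle genes were found in RefSeq on build GRCm38.p6. They are shown for Mki67 and Top2a, the first genes of the list, and Cenpe because most genes of the list were lower together and because cell cycle promoters are known for 2 short elements, the CCAAT box bound by NF-Y and the cell cycle homology region, here searched as TTTGAA. The 250 bases before the annotated start are printed 5′ to 3′ on the gene's strand, with both elements in capitals. On the other strand the CCAAT box reads ATTGG, and the second element reads TTCAAA there.
Mki67, chr7:135716380-135716629, minus strand: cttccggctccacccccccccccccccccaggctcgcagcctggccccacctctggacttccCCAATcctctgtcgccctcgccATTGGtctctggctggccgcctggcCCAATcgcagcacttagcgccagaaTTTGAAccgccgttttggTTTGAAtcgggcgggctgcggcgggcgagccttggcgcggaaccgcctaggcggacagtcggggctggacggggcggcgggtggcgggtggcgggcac
Top2a, chr11:99024190-99024439, minus strand: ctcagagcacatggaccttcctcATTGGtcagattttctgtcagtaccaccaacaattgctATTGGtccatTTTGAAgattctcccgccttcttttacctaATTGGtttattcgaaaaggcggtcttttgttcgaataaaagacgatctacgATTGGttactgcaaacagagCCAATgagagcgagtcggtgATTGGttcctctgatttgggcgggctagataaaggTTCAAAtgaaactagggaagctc
Cenpe, chr3:135212313-135212562, plus strand: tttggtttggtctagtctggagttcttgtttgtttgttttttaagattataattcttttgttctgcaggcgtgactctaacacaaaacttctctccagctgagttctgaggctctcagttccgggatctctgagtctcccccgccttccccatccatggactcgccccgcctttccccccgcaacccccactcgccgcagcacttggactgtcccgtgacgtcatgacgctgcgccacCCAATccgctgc
The Mki67 promoter held 3 CCAAT boxes and 2 TTTGAA elements, that of Top2a 6 and 2, and that of Cenpe 1 CCAAT box and 0 TTTGAA elements. CCAAT occurred in 29 of the 42 promoters of the list's genes, 69.0%, and in 33.8% of all 32851 promoters of the same length. TTTGAA occurred in 12 of 42, 28.6%, against 16.0%, and both together in 23.8% against 5.55%. A match is a description of the letters and not of binding.

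**Figure D2:**
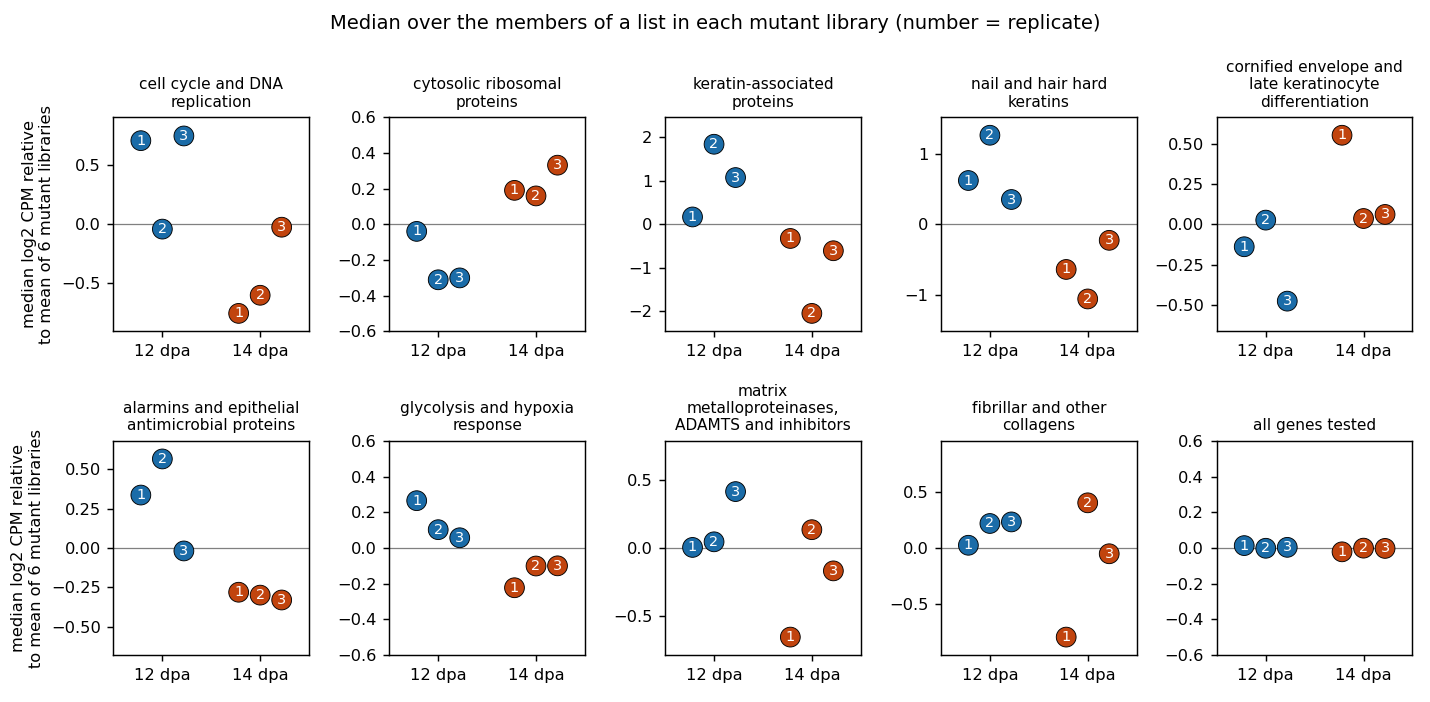
Median over the members of 9 gene lists, and over all genes tested, of log2(CPM + 0.1) in each mutant library relative to the gene's mean over the 6 mutant libraries. Numbers in the points are replicates, blue is 12 dpa and red is 14 dpa. The cell cycle list runs from -0.04 to 0.75 at 12 dpa and from -0.75 to -0.02 at 14 dpa, and the collagen list spans -0.79 to 0.40 at 14 dpa.

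Many genes of the nail plate, which are low in mutants throughout, were lower still at 14 dpa. Keratin-associated proteins crosslink the hard keratins of nail and hair. Of the 56 listed, 44 were tested; the days did not overlap in 27 with the 14 dpa libraries below and in 0 with them above. The median log2 change was -2.40, edgeR called 0 (31 lower at an unadjusted p under 0.05), and DESeq2 called 25, all lower. Krtap6-3 stood at 3.39, 15.9 and 6.56 CPM at 12 dpa and at 0.299, 0.418 and 0.583 CPM at 14 dpa (-4.31, SE 0.59, edgeR adjusted p = 0.0555). Krtap2-4 went from 3.08, 21.5 and 12.2 CPM to 0.599, 0.259 and 0.541 CPM (-4.74, SE 0.74), Krtap4-2 from 0.850 to 3.62 CPM to at most 0.0833 CPM, and Krtap9-3 from 5.43 to 25.9 CPM to 0.368 to 1.46 CPM. In wild type Krtap6-3 stood at 789 and 1120 CPM at 12 dpa and at 591 and 435 CPM at 14 dpa.

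Hard keratins are the filament proteins of the nail plate. Of 19 tested (23 listed), 9 did not overlap, all lower at 14 dpa, and 10 overlapped. Across the list the median was -1.005, and DESeq2 called 9, all lower, while edgeR called 0 (9 lower at an unadjusted p under 0.05). Krt33a had 0.844, 2.77 and 2.31 CPM at 12 dpa and 0.130, 0.0597 and 0.1249 CPM at 14 dpa (-4.25, SE 0.59, edgeR adjusted p = 0.0524), where wild type had 783 to 2390 CPM. Krt34 went from 27.3, 109 and 60.4 CPM to 6.16, 2.40 and 6.46 CPM (-3.71, SE 0.57), and Krt81 from 58.6, 198 and 126 CPM to 17.5, 5.80 and 15.5 CPM (-3.31, SE 0.55). Krt31 and Krt83 differed less, at -2.09 (SE 0.38) and -2.21 (SE 0.37). The summed level of the hard keratins overlapped between the days, with 6350, 11880 and 8678 CPM and then 6915, 3305 and 6857 CPM. By summed level, replicate 2 was the highest library of 12 dpa and the lowest of 14 dpa in both families.

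Without the tagged library DESeq2 called 25 keratin-associated proteins and 8 hard keratins lower, and without mutant 12 dpa replicate 3 it called 20 and 8. Wild type medians were also below 0, at -1.08 for keratin-associated proteins and -0.88 for hard keratins. Reads of these near-identical genes are divided among family members by the authors' counting, so values of single members are uncertain. The factors that control the nail matrix differed less: of 24 shaft regulators 1 was higher and 2 lower without overlap, Hoxc13 stood at 65.0 to 88.9 CPM and then 52.9 to 67.0 CPM, and Foxn1 at 37.9 to 50.05 CPM and then 27.8 to 44.8 CPM.

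Late differentiation genes of the epidermis were higher at 14 dpa in part. Proteins of the cornified envelope make the dead outer layer of skin. Of 48 tested (50 listed), 20 were higher and 4 lower without overlap, the median log2 change was 0.42, edgeR called 0 (18 higher and 6 lower at an unadjusted p under 0.05), and DESeq2 called 12 higher and 5 lower. Flg, the filaggrin gene, had 3115, 5087 and 4652 CPM at 12 dpa and 12860, 7092 and 5730 CPM at 14 dpa (0.999, SE 0.34, edgeR adjusted p = 0.17). Lor, the loricrin gene, had 803, 1169 and 1010 CPM and then 2584, 1258 and 1200 CPM (0.76, SE 0.33), and Lce1b 194 to 330 CPM and then 425 to 657 CPM (0.96, SE 0.28). The tagged library was the highest of all for these 3 genes. Without it DESeq2 called 0 of the list higher and 2 lower (median 0.28), and without mutant 12 dpa replicate 3 it called 0 higher and 7 lower (median 0.33). On the TPM scale, where the median of all genes was -0.19, the list's median was 0.03.

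The 4 members of that list that were lower without overlap were Lce3a, Lce3b, Sprr1a and Tchh. Lce3b had 16.3, 21.8 and 3.21 CPM at 12 dpa and 0.677, 0.994 and 1.32 CPM at 14 dpa (-3.79, SE 0.65, edgeR adjusted p = 0.0783). Sprr1a, a cornified envelope precursor, had 317, 266 and 157 CPM and then 63.8, 115 and 55.3 CPM (-1.66, SE 0.45), and Lce3a was at -2.35 (SE 0.56). In another list, that of wound and basal keratins and integrins, 1 of 23 was higher and 4 lower without overlap, and the median was 0.06 (0.004 without the tagged library). Krt17, a keratin of wound edge keratinocytes, had 2675, 2000 and 2527 CPM and then 1236, 1462 and 1158 CPM (-0.90, SE 0.21, edgeR adjusted p = 0.101). Krt5 and Krt14, the keratins of the basal layer, overlapped between the days, at 5305 to 6868 and 5658 to 5828 CPM for Krt5. Itgb6, an integrin subunit of migrating keratinocytes, had 22.2, 28.5 and 29.5 CPM and then 14.7, 18.2 and 21.4 CPM (-0.56, SE 0.16).

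Genes of cell junctions went in both directions. Of 25 tested, 8 were higher and 4 lower without overlap, and edgeR called 0. The median was 0.17 (0.09 without the tagged library), and -0.20 on the TPM scale beside -0.19 over all genes there. Cldn4, a tight junction claudin, had 73.8, 89.0 and 69.2 CPM and then 156, 118 and 125 CPM (0.78, SE 0.14, edgeR adjusted p = 0.0783). The tight junction gene Ocln had a log2 change of 0.53 (SE 0.14). Dsc2, a desmosomal cadherin of basal and simple epithelia, had 129, 86.7 and 134 CPM and then 57.9, 58.0 and 59.6 CPM (-0.99, SE 0.20). Of 24 enzymes that make the lipid barrier of skin, 6 were higher and 0 lower without overlap, and edgeR called 0. Their median of 0.32 became 0.17 without the tagged library and 0.18 without mutant 12 dpa replicate 3. On the TPM scale it was -0.09, beside -0.19 over all genes. The sphingomyelinase gene Smpd1 had 124 to 164 CPM and then 188 to 242 CPM, and Abhd5, an activator of lipid hydrolysis, 98.4 to 130 CPM and then 163 to 174 CPM.

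Alarmins are danger signals of injured tissue, and they were listed with the antimicrobial proteins of epithelia. Of 26 alarmins and antimicrobial proteins tested, edgeR called 2 lower, Slpi and S100a8, and 10 were lower at an unadjusted p under 0.05 against 2 higher. The days did not overlap in 5 lower and 2 higher, and the median log2 change was -1.03 with 20 of 26 below 0. The summed level overlapped, with 1588, 1030 and 1016 CPM and then 1025, 824 and 1334 CPM. S100a9, the partner of S100a8, had 374, 178 and 306 CPM and then 20.8, 45.9 and 54.0 CPM (-2.83, SE 0.47, edgeR adjusted p = 0.0783). Stfa2, a stefin, had 4.66, 3.39 and 2.08 CPM and then 1.07, 0.795 and 0.972 CPM (-1.84, SE 0.34). DESeq2 called 5 lower and 2 higher, 5 and 0 without the tagged library, and 8 and 0 without mutant 12 dpa replicate 3. The wild type median was 0.09.

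Several neutrophil and cytokine genes were highest in mutant 12 dpa replicate 3. Csf3r, the receptor for granulocyte colony-stimulating factor, had 0.732, 1.16 and 4.04 CPM at 12 dpa and 0.690, 1.20 and 0.555 CPM at 14 dpa. Il1b had 2.09, 3.66 and 17.8 CPM and then 3.37, 5.96 and 3.89 CPM, and the neutrophil attractants Cxcl1 and Cxcl2 had 3.93 and 23.1 CPM in mutant 12 dpa replicate 3, against at most 0.814 and 7.97 CPM in the other mutant libraries. Of 20 neutrophil genes tested (29 listed), 2 were higher and 1 lower without overlap. The median of -0.96 became 0.22 without mutant 12 dpa replicate 3, so its direction rested on that library, while S100a8 was low at 14 dpa against all 3 libraries of 12 dpa. The summed level of the list, 1857 to 2328 CPM and then 2784 to 4074 CPM, held 1110 to 1581 and then 2498 to 3955 CPM of Asprv1, a protease that keratinocytes make too. In mutant 12 dpa replicate 3 Asprv1 made up 1110 of 2328 CPM.

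Of 33 interleukin-1 family and NF-kB mediators tested, 7 were lower and 3 higher without overlap, with a median of -0.40 (-0.15 without mutant 12 dpa replicate 3). EdgeR called 0, and 11 were lower and 3 higher at an unadjusted p under 0.05. DESeq2 called 5 lower and 1 higher, 4 and 0 without the tagged library, and 3 and 1 without mutant 12 dpa replicate 3. Il33, an alarmin cytokine of epithelial and stromal nuclei, had 26.5, 18.8 and 9.49 CPM and then 5.10, 6.78 and 3.12 CPM (-1.86, SE 0.43, edgeR adjusted p = 0.105). Its receptor gene Il1rl1 had 2.14, 1.37 and 4.53 CPM and then 0.299, 0.706 and 0.791 CPM (-2.16, SE 0.51). Ligand and receptor were thus lower together. Lif, a cytokine of the interleukin-6 family, had 2.53, 2.77 and 4.20 CPM and then 1.47, 1.27 and 1.53 CPM (-1.15, SE 0.25). In the other direction, Il18 had 23.9 to 27.6 CPM and then 35.8 to 57.5 CPM (0.80, SE 0.28), and the decoy receptor Il1r2 15.1 to 16.8 CPM and then 23.4 to 24.4 CPM (0.57, SE 0.12).

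The other leukocyte lists held few genes whose days did not overlap. Among chemokines and their receptors 3 of 39 were higher and 0 lower without overlap. Cxcl14, a chemokine of skin epithelium, was one of them, with 182, 204 and 189 CPM and then 264, 313 and 365 CPM (0.71, SE 0.13, edgeR adjusted p = 0.0783). Macrophage genes had 2 of 36 higher and 0 lower, T and NK cell genes 1 and 1 of 23, Langerhans and dendritic cell genes 2 and 1 of 25, interferon response genes 2 and 1 of 38, complement and coagulation genes 1 and 1 of 24, mast cell genes 0 and 1 of 10, and B cell genes 1 and 0 of 4. The macrophage genes Emr1 and Csf1r had 0.788 to 1.33 and 14.1 to 56.0 CPM at 12 dpa, and 0.729 to 1.86 and 15.9 to 24.1 CPM at 14 dpa.

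Collagen genes spread widely among the libraries of 14 dpa. Col1a1, the main collagen gene of bone and dermis, had 3011, 3481 and 4122 CPM at 12 dpa and 1141, 4956 and 2256 CPM at 14 dpa, where the tagged library was the lowest and replicate 2 the highest. Of 34 collagens tested, 0 were higher and 4 lower without overlap, close to the background share, with a median of -0.16 that became 0.04 without the tagged library. Col5a3 had 79.98, 72.3 and 134 CPM and then 17.2, 45.0 and 31.8 CPM (-1.61, SE 0.35, edgeR adjusted p = 0.0954), and Col12a1 644, 616 and 854 CPM and then 309, 540 and 401 CPM (-0.76, SE 0.22). Both of these were below their 12 dpa range in every 14 dpa library. Among 37 genes of blastema and distal fibroblasts, 0 were higher and 8 lower without overlap, and the median of -0.11 became 0.08 without the tagged library. Lrrc15, a membrane protein of activated fibroblasts, had 133, 168 and 79.2 CPM and then 41.1, 68.9 and 64.8 CPM (-1.12, SE 0.35), beside 4240 to 12490 CPM in wild type.

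Single genes of the matrix and of the enzymes that degrade it were lower at 14 dpa. The genes of these lists are long, with median lengths of 3703 and 4271 bases. Among all protein-coding genes of at least 2 CPM, 16.1% and 19.1% were lower without overlap in the 2 longest of 5 length groups. The counts of the lists lie near these shares, so no direction is read from the counts. Of 56 genes of matrix glycoproteins, elastic fibres and crosslinking, 0 were higher and 9 lower without overlap, and edgeR called 0. The median of -0.34 became -0.12 without the tagged library and -0.21 without mutant 12 dpa replicate 3. DESeq2 called 8 lower, 3 lower and 2 higher without the tagged library, and 1 lower without mutant 12 dpa replicate 3. Tnc, a wound matrix glycoprotein, had 318, 233 and 444 CPM and then 71.3, 219 and 170 CPM (-1.11, SE 0.38, edgeR adjusted p = 0.177), and fibulin gene Fbln1 61.6, 57.0 and 66.0 CPM and then 37.7, 47.9 and 42.1 CPM (-0.53, SE 0.13). Of 37 metalloproteinases, ADAMTS proteases and inhibitors, 1 was higher and 7 lower, with a median of -0.57 (-0.33 without the tagged library and -0.28 without mutant 12 dpa replicate 3). EdgeR called 0 and DESeq2 5 lower, 4 and 2 in the same omissions. Mmp13, a collagenase of bone and wound, had 78.7, 36.4 and 287 CPM and then 14.6, 23.6 and 23.3 CPM (-2.71, SE 0.69, edgeR adjusted p = 0.129). Mmp3 had 4.67, 1.37 and 30.1 CPM and then 0.482, 1.45 and 1.35 CPM, an overlap, and Adamts4, an aggrecanase, 5.18 to 10.4 CPM and then 1.20 to 3.18 CPM (-1.72, SE 0.41).

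Mutant 12 dpa replicate 3 stood out in the bone-resorbing genes. Ctsk, the collagen-degrading protease of osteoclasts, had 486 CPM there, against 91.1 and 63.0 CPM in the other libraries of 12 dpa and 40.0, 101 and 185 CPM at 14 dpa. Acp5, the osteoclast acid phosphatase, had 194 CPM there and 62.2 to 115 CPM in the other 5. Of 22 genes of osteoclasts and RANK signalling, 1 was higher and 4 lower without overlap, and the median of -0.81 became -0.16 without that library, with 0 called by DESeq2 in either direction. Tnfsf11, the RANK ligand that induces osteoclasts, had 2.06, 1.10 and 8.38 CPM and then 0.182, 0.974 and 0.777 CPM (-2.57, SE 0.81), and Itgb3, an osteoclast integrin subunit, 9.67 to 48.3 CPM and then 6.67 to 9.05 CPM (-1.57, SE 0.56). Both were lower at 14 dpa against every library of 12 dpa, and neither passed edgeR's test (adjusted p = 0.159 and 0.198).

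Genes of bone and cartilage formation showed no common direction. Of 35 osteoblast and osteocyte genes, 3 were higher and 1 lower without overlap (median 0.11, and 0.17 without the tagged library). Runx2 and Sp7, the master regulators of osteoblasts, overlapped, with 16.7 to 23.1 and 7.16 to 19.9 CPM for Runx2, and 3.32 to 6.70 and 0.482 to 7.59 CPM for Sp7. Omd and Ogn, small proteoglycans of bone and connective tissue, were higher at 14 dpa, Omd with 10.04, 10.4 and 7.83 CPM and then 11.5, 25.0 and 19.4 CPM (0.98, SE 0.26), and Ogn with 4.14 to 6.30 CPM and then 6.37 to 13.8 CPM (0.996, SE 0.26; edgeR adjusted p = 0.125 and 0.12). Of 23 cartilage genes 2 were higher and 2 lower; Sox9 stood at 150 to 235 CPM and then 190 to 199 CPM, while Col2a1, the main cartilage collagen, was at most 0.180 CPM in every mutant library beside the Col10a1 rise described above. Of 16 tendon genes 0 were higher and 3 lower, and of 15 small proteoglycans 2 and 1.

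Vascular genes showed no common direction. Cdh5 and Pecam1, junction proteins of blood endothelium, had 10.3 to 14.4 and 13.1 to 21.4 CPM at 12 dpa, and 9.19 to 14.1 and 11.8 to 19.3 CPM at 14 dpa. Of 35 blood endothelial genes 0 were higher and 3 lower without overlap, and the median of -0.14 turned to 0.08 without the tagged library and 0.10 without mutant 12 dpa replicate 3. Of 20 pericyte and smooth muscle genes 0 were higher and 1 lower. Among lymphatic genes, 4 of 12 were higher and 1 lower without overlap, and DESeq2 called 4 higher (1 without the tagged library, 2 without mutant 12 dpa replicate 3). Flt4, the receptor for the lymphatic growth factor Vegfc, had 1.37, 1.253 and 1.89 CPM and then 3.48, 2.82 and 2.53 CPM (0.96, SE 0.22, edgeR adjusted p = 0.0943). Ccl21a, a chemokine of lymphatic vessels, had 0.462, 0 and 0.213 CPM and then 4.35, 2.02 and 2.05 CPM, and Mmrn1 0.293, 0 and 0.179 CPM and then 2.69, 0.716 and 0.861 CPM. Prox1, the factor that defines lymphatic identity, overlapped, at 0.683 to 1.43 CPM and 0.861 to 1.15 CPM. Flt4 and Ccl21a stayed below their wild type levels of 11.8 to 16.2 and 8.27 to 19.2 CPM, while Mmrn1 in mutant 14 dpa replicate 1 reached the wild type range of 2.52 to 6.62 CPM. Ccl21a has near-identical copies among which reads are divided.

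Of the remaining cell type lists, nerve and Schwann cell genes had 0 higher and 2 lower of 26, skeletal muscle 0 and 2 of 10, adipocytes 0 and 1 of 10, erythroid cells and platelets 2 and 1 of 9, sweat gland and volar skin 3 and 2 of 17, and sebaceous gland 1 and 2 of 14. Pigment cell genes had 0 of 15 in either direction. Pmel, a melanosome protein, had 2.32, 1.56 and 16.3 CPM at 12 dpa and 9.91, 13.3 and 6.83 CPM at 14 dpa, so that 12 dpa replicate 3 was again apart from its group. Without that library the median of the pigment list was 1.87 and DESeq2 called 5 of its genes higher, against 0.46 and 0 with it.

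Ribosomal protein genes were higher at 14 dpa. Of 85 tested (87 listed), 63 were higher and 0 lower without overlap, 82 had a log2 change above 0, and the median was 0.43. EdgeR called 0, and 67 were higher at an unadjusted p under 0.05. Rpl34 had 140, 156 and 172 CPM and then 335, 276 and 410 CPM (1.13, SE 0.17, edgeR adjusted p = 0.058), a larger difference than that of Rpl13, at 598 to 667 CPM and then 793 to 912 CPM (0.42, SE 0.14), and Rps4x (0.44, SE 0.12). The summed level was 39740, 33100 and 32770 CPM at 12 dpa and 46340, 45870 and 51320 CPM at 14 dpa. DESeq2 called 45 higher, 23 without the tagged library and 1 without mutant 12 dpa replicate 3. The wild type median was 0.26. On the TPM scale, where the median of all genes was -0.19, the mutant median was 0.03.

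Gene length moved with the change between the days and touches this result. Among 11758 protein-coding genes of at least 2 CPM in mutants, split by length into 5 equal groups, the shortest group had a median log2 change of 0.14 and the longest of -0.10. Of the shortest group 27.8% were higher and 7.06% lower without overlap, and of the longest 5.87% and 19.1%. Ribosomal protein genes are short, with a median length of 645 bases in the deposited files. With the length trend of each library removed their median was 0.22, where that of all genes was -0.05. The same step left the cell cycle list at -1.01, keratin-associated proteins at -2.75 and the cornified envelope list at 0.40, and it took nuclear genes of oxidative phosphorylation, also short, from 0.21 to 0.06. Wild type libraries had the same trend, with medians of 0.04 in the shortest and -0.12 in the longest group. What part length has in the single results was not tested further.

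**Figure D3:**
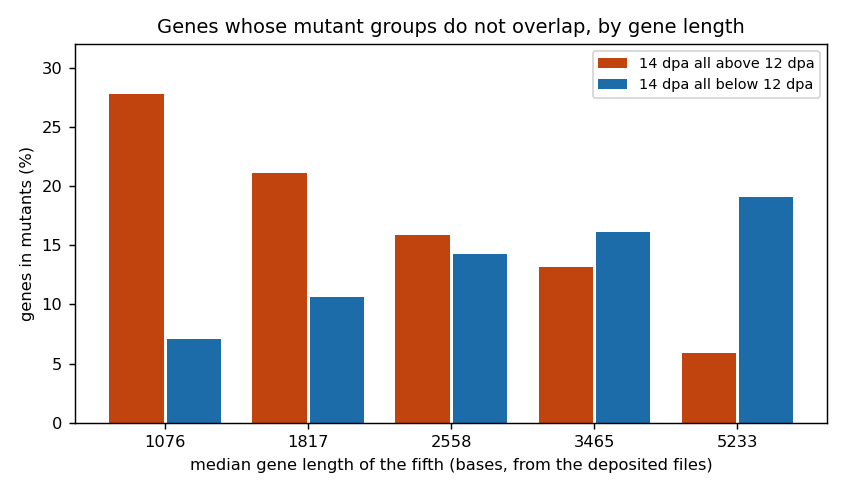
Share of protein-coding genes of at least 2 CPM whose 3 mutant libraries of 14 dpa lay all above (red) or all below (blue) the 3 of 12 dpa, in 5 groups by gene length; each group holds 2351 or 2352 genes. The share above declines from 27.8% to 5.87% from the shortest to the longest group, and the share below grows from 7.06% to 19.1%.

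Mitochondrially encoded mRNAs were mostly lower at 14 dpa, while nuclear genes of oxidative phosphorylation had a small positive median that shrank with the length trend removed. Of 50 nuclear genes of oxidative phosphorylation 19 were higher and 1 lower without overlap, beside 27.8% higher among the shortest genes. The median was 0.21, and 0.06 with the length trend removed. On the TPM scale the median was -0.16, beside -0.19 over all genes. EdgeR called 0 of the 50 and DESeq2 3 higher, 2 without the tagged library and 1 without mutant 12 dpa replicate 3. Uqcrfs1, the iron-sulfur subunit of complex III, had 62.5, 54.4 and 54.2 CPM and then 78.8, 76.5 and 86.7 CPM (0.50, SE 0.10, edgeR adjusted p = 0.092). The 13 mRNAs of the mitochondrial genome were mostly lower, 7 lower and 2 higher without overlap, with a median of -0.49. Mitochondrial mRNA took 0.826% to 0.933% of counts in mutants at 12 dpa and 0.607% to 0.678% at 14 dpa, and no library of one day reached the other. Among them mt-Nd4l, a subunit of complex I, had 47.5, 50.7 and 46.4 CPM and then 29.7, 19.3 and 19.9 CPM (-1.07, SE 0.16, edgeR adjusted p = 0.0524), and mt-Nd4, mt-Nd5 and mt-Cytb were at -0.93, -0.75 and -0.74. DESeq2 called 6 lower and 2 higher, 9 and 3 without the tagged library, and 6 and 1 without mutant 12 dpa replicate 3. The wild type median was -0.27.

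Of 32 genes of glycolysis and the hypoxia response tested, 10 were lower and 0 higher without overlap, with a median of -0.23. EdgeR called 0 and DESeq2 8 lower (5 without the tagged library, 7 without mutant 12 dpa replicate 3). Slc16a3, a lactate exporter induced by low oxygen, had 26.6, 14.7 and 27.5 CPM and then 4.86, 8.97 and 7.70 CPM (-1.68, SE 0.31, edgeR adjusted p = 0.0859). Car9, a carbonic anhydrase that is a textbook target of hypoxia, had 3.13, 0.659 and 1.07 CPM and then 0.195, 0.328 and 0.1249 CPM (-2.88, SE 0.60, edgeR adjusted p = 0.092). Both targets of low oxygen were below all libraries of 12 dpa. Of the glycolytic enzymes, Gapdh had 570, 542 and 615 CPM and then 320, 455 and 345 CPM (-0.62, SE 0.15), and Tpi1 190 to 237 CPM and then 143 to 162 CPM (-0.46, SE 0.12). The hexokinase genes Hk1 and Hk2 overlapped, and so did Vegfa, with 17.6 to 27.0 CPM and 14.6 to 20.2 CPM. The wild type median was -0.12.

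Among 29 AP-1 and immediate early genes, which respond within minutes to growth factors and stress, 10 were higher and 0 lower without overlap. The median was 0.29 (0.11 without the tagged library), and -0.12 on the TPM scale beside -0.19 over all genes there. EdgeR called 0 of the 29. Ier3 had 35.3, 40.6 and 46.9 CPM and then 66.8, 66.8 and 64.5 CPM (0.69, SE 0.20, edgeR adjusted p = 0.133), and Egr3 79.1 to 101.7 CPM and then 130 to 186 CPM (0.74, SE 0.23). Fos itself overlapped, with 18.4, 15.7 and 60.0 CPM and then 24.1, 12.3 and 19.5 CPM. DESeq2 called 3 higher, Ier3, Egr3 and the phosphatase gene Dusp5, and 0 without the tagged library. Of 28 genes of endoplasmic reticulum chaperones and stress, 4 were higher and 1 lower; the chaperone gene Hspa5 overlapped, with 235 to 260 CPM and 230 to 282 CPM.

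**Figure D4:**
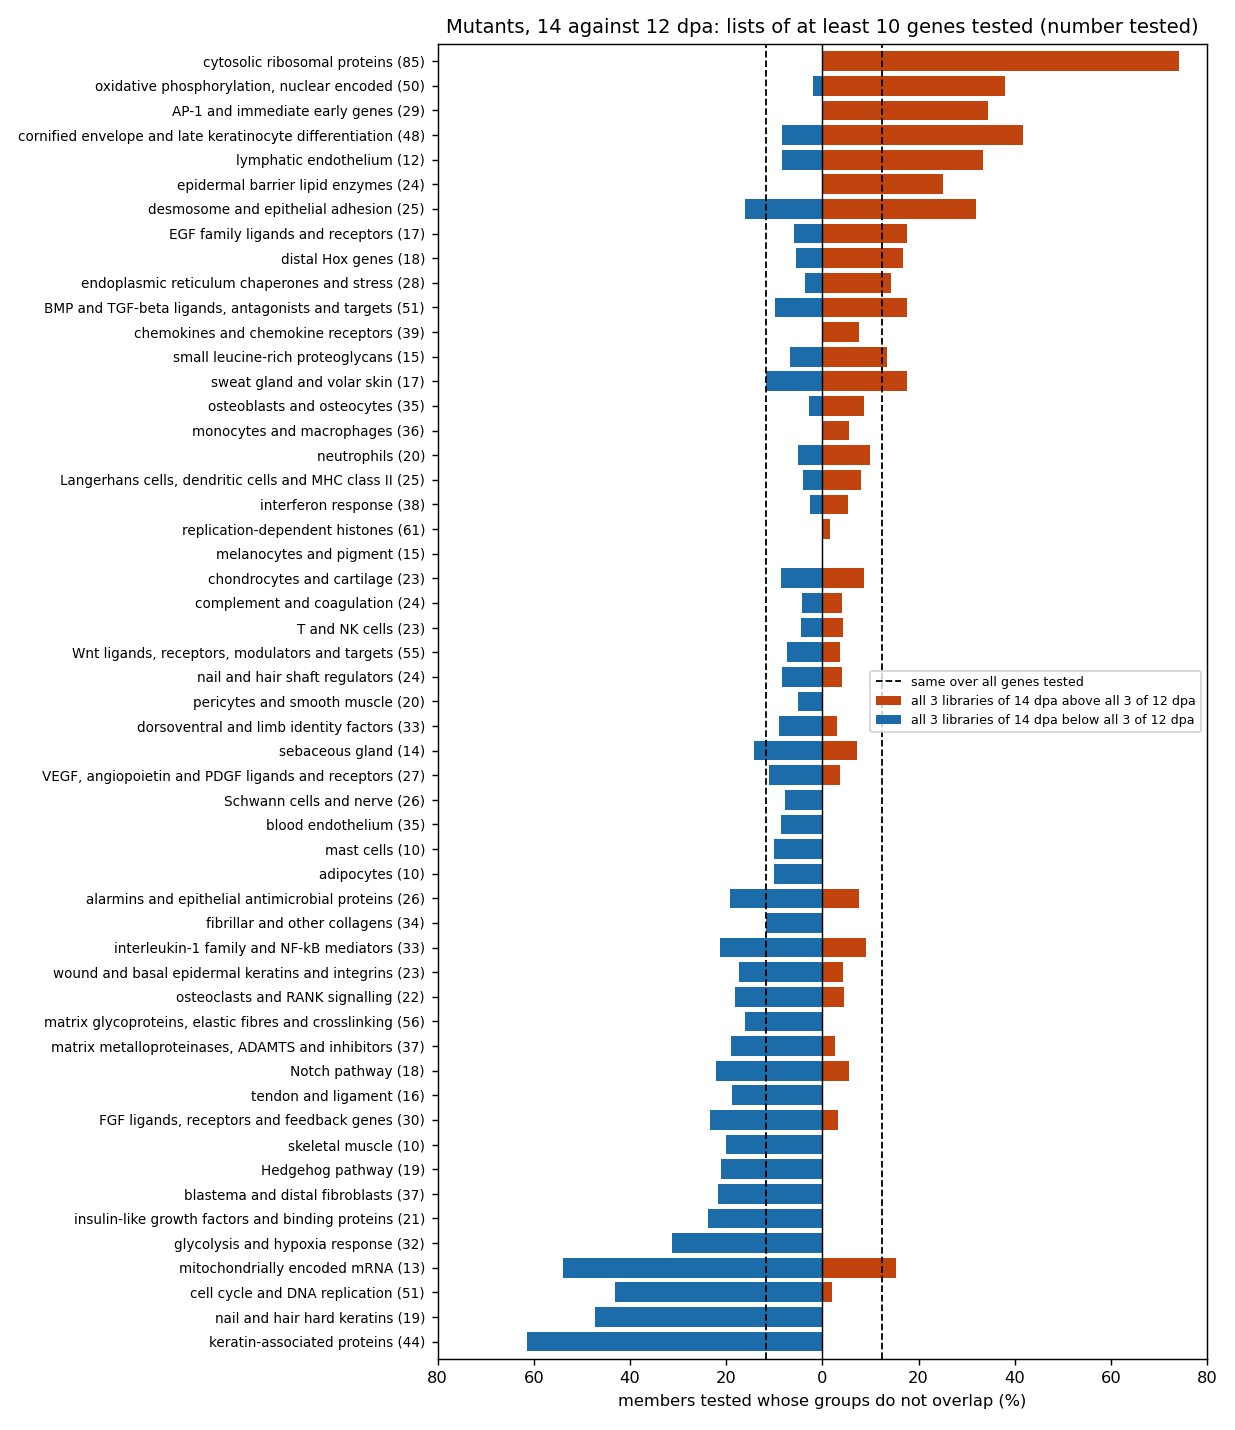
Share of the tested members of each list whose mutant libraries of 14 dpa lay all above (red, right) or all below (blue, left) those of 12 dpa; dashed lines mark the same over all genes, 12.5% and 11.8%. Lists of at least 10 tested genes are shown, with the number tested, from ribosomal proteins (63 of 85 above) to keratin-associated proteins (27 of 44 below).

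Signalling lists gave small counts of genes without overlap, to be read beside 12.5% higher and 11.8% lower over all genes. They were the BMP and TGF-beta, EGF family, Wnt, Hedgehog, Notch, FGF, vascular and insulin-like growth factor lists. Their median log2 changes lay between -0.16 and 0.01, beside -0.02 over all genes, so no direction is read from the counts. EdgeR called 0 genes in each of these lists. In the BMP and TGF-beta list 9 of 51 were higher and 5 lower without overlap, and the median was 0.01 (-0.03 without the tagged library). The higher ones included the Id genes, inhibitors of helix-loop-helix factors and direct targets of BMP signals. Id3 had 29.5, 24.4 and 26.4 CPM and then 36.7, 53.8 and 51.2 CPM (0.82, SE 0.15, edgeR adjusted p = 0.0783), Id2 20.2 to 24.7 CPM and then 30.3 to 40.4 CPM (0.65, SE 0.15), and Id1 42.1 to 65.0 CPM and then 76.4 to 94.8 CPM (0.69, SE 0.18). The ligand gene Bmp2 overlapped between the days, with 11.9 to 25.9 CPM and 16.4 to 26.6 CPM, and so did Bmp1, a protease that processes procollagen.

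In the Wnt list 2 of 55 were higher and 4 lower, Wnt3a among them with 4.15, 3.84 and 4.50 CPM and then 5.57, 6.82 and 7.48 CPM (0.67, SE 0.17, edgeR adjusted p = 0.117). Hhip, a target and antagonist of Hedgehog, had 1.82, 1.64 and 1.72 CPM and then 0.729, 0.984 and 0.958 CPM (-0.96, SE 0.21, edgeR adjusted p = 0.0943), and in the Hedgehog list 0 of 19 were higher and 4 lower. Notch genes had 1 higher and 4 lower of 18. The endothelial receptor gene Notch4 was at -0.81 (SE 0.21) and the modifier gene Lfng at 0.47 (SE 0.13). On the TPM scale Lfng was at -0.01, where the median of all genes was -0.19. FGF genes had 1 and 7 of 30, VEGF, angiopoietin and PDGF genes 1 and 3 of 27, and EGF family genes 3 and 1 of 17. Ereg, an EGF family ligand of keratinocytes, had 96.7, 143 and 74.8 CPM and then 322, 182 and 204 CPM (1.17, SE 0.43). Insulin-like growth factor genes had 0 higher and 5 lower of 21, and Igf2bp2, a binding protein of mRNA, had 10.7, 12.6 and 14.5 CPM and then 5.09, 5.77 and 4.39 CPM (-1.31, SE 0.22, edgeR adjusted p = 0.0783).

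Of 18 distal Hox genes, which give limb segments their identity, 3 were higher and 1 lower without overlap. Hoxa9 had 50.8, 54.2 and 49.9 CPM and then 79.1, 73.8 and 69.6 CPM (0.52, SE 0.11, edgeR adjusted p = 0.092), and Hoxa10 3.14, 2.42 and 2.44 CPM and then 4.43, 4.58 and 5.09 CPM (0.82, SE 0.20). Of 33 dorsoventral and limb identity factors 1 was higher and 3 lower. En1, the ventral ectoderm factor, had 80.4, 96.6 and 44.8 CPM and then 119, 111 and 132 CPM, above all 12 dpa libraries (edgeR adjusted p = 0.216).

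The wild type served as the reference for time itself. By edgeR's test 0 genes (0%) changed in wild type between 12 and 14 dpa (1654 at an unadjusted p under 0.05, 8.18%; DESeq2 called 77, 0.524%), with 2 libraries a day. The difference between the genotypes' day contrasts passed for 0 genes (0%), with 1762 at an unadjusted p under 0.05, 8.72%; DESeq2 called 48, 0.238%. The smallest adjusted p of the difference in edgeR was 0.208, for Gm45062, whose mutant change was 4.38 log2 units below that of wild type. By edgeR's test no gene is shown to move in mutants alone.

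The genes nearest to a difference are named by their p. Cxcl14 was higher at 14 dpa in mutants and lower in wild type, where it had 330 and 312 CPM and then 200 and 207 CPM (difference 1.37, SE 0.20). Epcam, an adhesion protein of epithelia, had 74.0, 70.7 and 85.3 CPM and then 121, 111 and 94.0 CPM in mutants, and 61.2 and 44.3 CPM and then 28.01 and 29.4 CPM in wild type (1.38). Serpina9 had 48.9 to 102.4 CPM and then 134 to 154 CPM in mutants, and 82.1 and 109 CPM and then 43.8 and 36.9 CPM in wild type (2.17). For these 3 genes the days separated in opposite directions in the 2 genotypes. The transcription factor gene Bhlhe40 (0.87), Hspa5 (0.96) and Col10a1 (5.10) complete the higher side. On the lower side stood Palb2, a partner of the Brca2 repair protein (-1.87), Samd12 (-3.58), Col2a1 (-3.63), the centrosome gene Cspp1 (-0.80), the replication factor gene Wdhd1 (-1.24) and the kinase scaffold gene Ksr1 (-0.96). For all 12 genes edgeR's adjusted p of the difference was 0.544. DESeq2 called the difference for 11 of them, with adjusted p from 3.73e-06 for Cxcl14 and Bhlhe40 to 0.0173 for Wdhd1, and not for Ksr1 (0.0583).

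**Figure D5:**
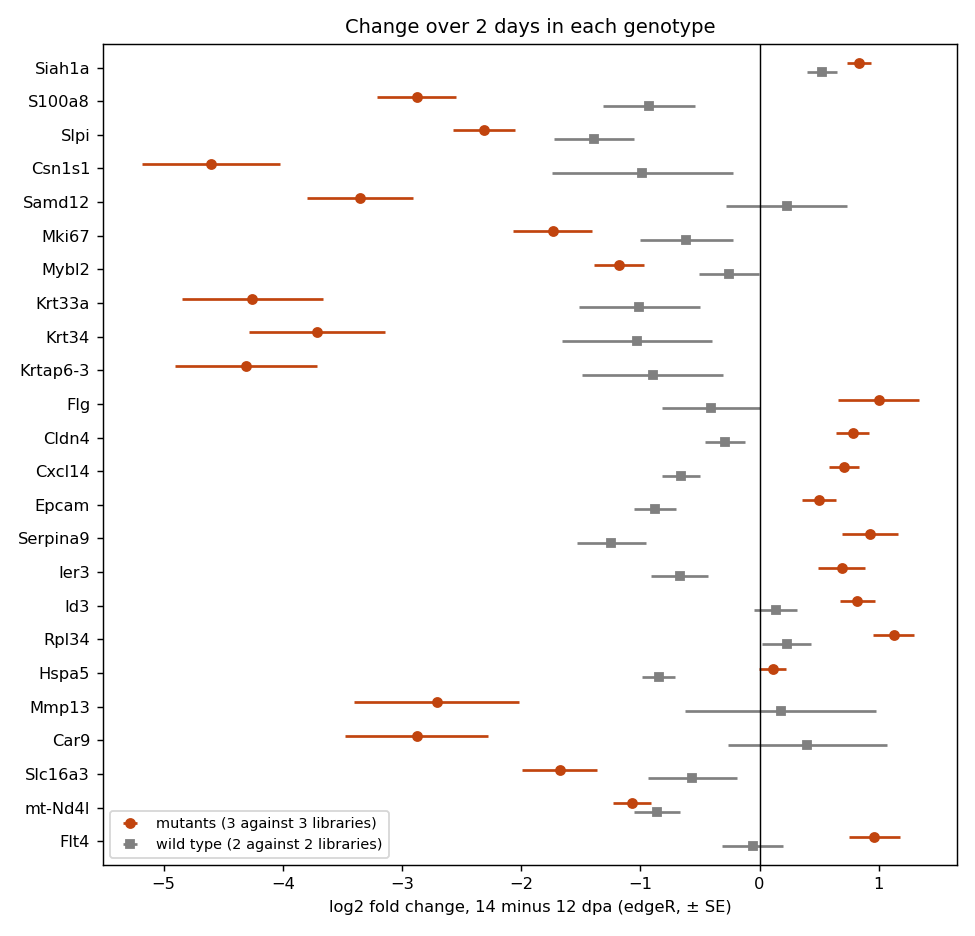
Log2 fold change from 12 to 14 dpa of named genes in mutants (red circles) and wild type (grey squares) with standard errors from the edgeR fit. Cxcl14, Epcam, Serpina9 and Ier3 lie to the right of 0 in mutants and to the left in wild type, and Krt33a lies at -4.25 in mutants and -1.01 in wild type; none of these differences passed edgeR's test, and all 5 passed that of DESeq2 (adjusted p from 3.73e-06 for Cxcl14 to 0.0427 for Ier3).

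The balance of directions differed between settings. With upper quartile factors 16 genes were called, 4 of them higher. Limma-trend on TPM with a pseudocount of 1, a change of both scale and test, called 313, of which 5 were higher and 308 lower. On that scale the median of all genes was -0.19 in mutants and -0.18 in wild type, and changes there are read relative to it. Placing the tagged library in the wild type group left 2 called genes, 1 in each direction. With male libraries only, 8 genes were called.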

How the data were processed

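Per the labels, RNA came from dissected blastema of 6 amputated hindlimb digits per library. FastQC, STAR 2.7.8a, RSEM 1.3.0 and GRCm39 are named in the submitters' processing notes. The authors deposited RSEM expected counts per gene (13.9% of them not whole), which were rounded to whole numbers here, and TPM values, which were used only in alternatives. Of 55416 genes, 20216 passed edgeR's filter (minimum count 10, minimum total 15). One quasi-likelihood fit with TMM factors over the 10 libraries (edgeR 4.0.16, limma 3.58.1, DESeq2 1.42.0 and R 4.3.3) gave all contrasts, with Benjamini-Hochberg adjustment at 0.05, and the steps were tested on simulated data. CPM are counts scaled to a TMM-adjusted library size of 1e+06. Depth was 69998104 to 101632364 counts, and the biological coefficient of variation between libraries was 0.277. Symbols came from the authors' table for 21727 genes and from GENCODE for 30406. The members and gene lists were chosen with earlier results of these data known.

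Named genes were the 12 in each direction with the largest change among called protein-coding genes of at least 2 CPM, filled up by smallest p; in each of 55 lists the called members and the first 2 tested; and the 6 in each direction with the smallest p for the difference between genotypes. Up to 4 list members with the smallest edgeR p among those that DESeq2 called and whose days did not overlap were added after their values were seen, as were a few further genes that a sentence singles out. Some genes that these rules name are not reported here. Of 1737 list entries, 5 had no match.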

Additional observations from a re-analysis of the deposited data

How the results depend on the processing

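The number of genes called in mutants (7; 3 higher and 4 lower) depended on the tool and filter. DESeq2 called 1505 (714 higher, 791 lower), upper quartile factors gave 16 (12 lower), no filter on low counts 45 (14 higher, 31 lower), a stricter filter 19 (15 lower), and limma-trend 313 on log2(TPM + 1) (5 higher, 308 lower) and 337 on log2(TPM + 0.1) (5 higher, 332 lower). Sex as a term gave 18 (15 lower), and the tagged library placed in wild type 2 (1 higher, 1 lower). RLE factors, limma-voom, the mutant libraries alone, male libraries only and removal of the length trend stayed within 1.5 times of the main count. In wild type (0 called) DESeq2 gave 77, TPM with a pseudocount of 1 gave 3 and of 0.1 gave 1, the sex term 2 and male libraries only 3. For the difference between genotypes (0 called) DESeq2 gave 48, no filter 1, TPM with a pseudocount of 1 gave 1, and male libraries only 2. Leaving out 1 library gave 1 to 24 called genes in edgeR (1 to 6 higher, 0 to 22 lower), 0 to 4 in wild type and 0 to 3 for the difference. With DESeq2, leaving out mutant 12 dpa replicate 3 or the tagged library gave 492 and 907 (181 and 391 higher, 311 and 516 lower), 114 and 107 in wild type and 73 and 55 for the difference. The causes were not tested.

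Same-numbered mutant libraries of the 2 days did not deviate together (correlations -0.121, -0.093 and 0.018), so the numbers were not taken to pair them; the fit with the replicate block called 13 genes, 3 higher and 10 lower. Male-only and length-trend fits, the DESeq2 omissions and, for the mutant results only, the omissions of wild type libraries were chosen after seeing the data. Of the named genes' changes in mutants, Lfng (-0.011 on both TPM scales) and Hspa5 (-0.278 and -0.280 there) changed sign. On log2(TPM + 1) the median of all genes was -0.19, and Lfng lay above that median and Hspa5 below it. Neither gene had passed edgeR's test, and Lfng had passed that of DESeq2.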
